A study of Mus musculus with 8 samples.

Results

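The genes described here are Fasn, Scd1, Acly, Acaca, Srebf1, Elovl1, Pcyt1a, Chka, Chpt1 and Fabp5. Most encode enzymes that make fatty acids or act in joining them to choline, while Srebf1 encodes a transcriptional activator and Fabp5 a fatty acid carrier. All 10 genes were taken by symbol, with earlier results of these data known, and were present among the 25965 genes of the deposited table. RNA was purified from mouse lung at E18.5 (embryonic day) and P1.5 (postnatal day) and sequenced. Wfdc2 +/+ control lungs were compared with lungs of Wfdc2 GFP/GFP knockout mice, which are homozygous for a green fluorescent protein knock-in allele at the locus of Wfdc2, a secreted epithelial protein. Each of the 4 groups (E18.5 Wfdc2 +/+, E18.5 Wfdc2 GFP/GFP, P1.5 Wfdc2 +/+ and P1.5 Wfdc2 GFP/GFP) held 2 libraries, from duplicate animals, and no agent was given to any group. The comparisons address how the loss of Wfdc2 affects the lung around birth.

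Surfactant is the film of lipid and protein that keeps alveoli open, and its main lipid is phosphatidylcholine carrying saturated fatty acids. Alveolar type II cells make the fatty acids from citrate through acetyl-CoA and malonyl-CoA, join them to choline along the CDP-choline (Kennedy) pathway, and store the product in lamellar bodies. In rodents this synthesis is known to be induced late in gestation, and SREBP-1c, a product of Srebf1, is a transcriptional activator of the fatty acid enzymes.

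The levels below are the deposited log2 RPKM, the log2 of reads scaled to the depth of the library and to the length of the whole gene span in kilobases. A difference is a log2 fold change from a limma fit of all 8 libraries over 15627 genes, given with its standard error (SE), and a gene was called at a Benjamini-Hochberg adjusted p under 0.05. All 10 genes were tested, and the filter on low values removed none of them. The p-values measure the spread between these animals, 2 in each group. Lung RNA holds many cell types, so fewer cells of a type and less RNA in each cell cannot be told apart.

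The libraries held 19457647 to 37209332 reads. Wfdc2 had 8038 and 8791 reads in the E18.5 Wfdc2 +/+ libraries and 32845 and 10212 in the P1.5 Wfdc2 +/+ libraries, against 0 and 1 in E18.5 Wfdc2 GFP/GFP and 12 and 0 in P1.5 Wfdc2 GFP/GFP, so each library matched its genotype label. By Xist (4121 to 90980 reads in each replicate 1, 1 to 13 in each replicate 2) and the Y-linked Ddx3y (0 to 3 against 972 to 2175), every group held 1 female, replicate 1, and 1 male, replicate 2, so that the spread within a group includes sex. The defining marker of alveolar type II cells, Sftpc, was the most abundant gene in 7 of 8 libraries. Replicate 1 of E18.5 Wfdc2 GFP/GFP stood apart. Its most abundant gene was Eef1a1, its 8 alveolar type II markers summed to 9708 RPM (reads scaled to library depth in the way of RPKM, without gene length) against 19034 to 23988 in the other 3 E18.5 libraries, and its 4 markers of proliferating cells summed to 1193 against 325 to 504. Replicate 2 of P1.5 Wfdc2 +/+ also differed from its partner, with 4 squamous keratins at 113 against 6.31 RPM and 4 hepatocyte markers at 70.0 against 7.05. Its Sftpc was at 23977 against 53718, while 6 of the 8 type II markers were higher in it. Replicate 1 of this group was lower in summed markers of fibroblasts (574 against 2258 RPM), endothelial cells (488 against 1456) and proliferating cells (59.0 against 291). It was higher in those of neutrophils (1679 against 491). The part of these tissues and cells in the levels was not tested. The sequencer used for each library is not given in the sources used here, and its part in any difference was not tested.

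RefSeq promoter windows on GRCm38.p6, the mm10 build of the deposited coordinates, were found for 8 of the 10 genes, Scd1 and Fabp5 being the others. The 250 bases before the first start of Fasn, Acly and Pcyt1a are shown because these genes were lower at P1.5 than at E18.5 in both genotypes, and those of Elovl1 because it was higher. Acaca was lower in the same way, but its window (chr11:84195188-84195437, plus strand), which lies inside the gene span, held no match to any motif searched and is not printed. Capitals mark matches, on either strand, to CCAAT, to GGGCGG, or to TCACNCCAC, the sterol regulatory element of SREBP target genes.
Fasn, chr11:120824548-120824797, minus strand: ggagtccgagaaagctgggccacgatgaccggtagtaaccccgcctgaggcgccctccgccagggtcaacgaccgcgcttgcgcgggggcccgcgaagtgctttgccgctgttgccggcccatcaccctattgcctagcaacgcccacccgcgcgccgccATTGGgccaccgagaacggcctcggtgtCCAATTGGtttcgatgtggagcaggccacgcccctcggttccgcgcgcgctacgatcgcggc
Acly, chr11:100528001-100528250, minus strand: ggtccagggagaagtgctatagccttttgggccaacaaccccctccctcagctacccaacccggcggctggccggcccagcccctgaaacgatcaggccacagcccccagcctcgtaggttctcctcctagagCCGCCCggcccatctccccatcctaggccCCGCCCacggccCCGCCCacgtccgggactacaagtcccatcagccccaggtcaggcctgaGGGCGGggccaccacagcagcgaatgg
Pcyt1a, chr16:32430671-32430920, plus strand: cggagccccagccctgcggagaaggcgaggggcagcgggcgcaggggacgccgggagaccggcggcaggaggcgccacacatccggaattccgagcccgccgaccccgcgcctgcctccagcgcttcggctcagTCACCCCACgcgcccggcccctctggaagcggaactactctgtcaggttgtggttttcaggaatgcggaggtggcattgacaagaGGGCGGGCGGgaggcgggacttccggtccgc
Elovl1, chr4:118427843-118428092, plus strand: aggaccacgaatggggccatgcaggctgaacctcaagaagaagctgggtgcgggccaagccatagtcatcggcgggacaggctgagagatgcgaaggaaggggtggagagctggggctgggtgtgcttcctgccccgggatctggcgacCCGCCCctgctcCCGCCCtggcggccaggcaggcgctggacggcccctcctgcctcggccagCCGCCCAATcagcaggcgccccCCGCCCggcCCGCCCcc
The Fasn window held 3 matches to CCAAT, of which the pair 59 and 62 bases before the start overlap on opposite strands. The Acly window held 4 matches to GGGCGG, and the Elovl1 window held 5, 1 of them overlapping its CCAAT. The Pcyt1a window held the only sterol element found in the windows searched, 116 bases before the start, and 2 overlapping GGGCGG. The Fasn window lies upstream of the deposited Fasn span, which begins at base 120824178 on the minus strand, and the bases between were not searched. TCACNCCAC lies in 1.05% of all 32851 windows, and in 2 of the 13 windows of these genes, both of them overlapping windows of Pcyt1a. GGGCGG lies in 9 of the 13 windows and in 32.7% of all windows, and CCAAT in 6 of the 13 and in 33.8%. CACGTG, the E-box, lies in 6.02% of all windows and in none of the 13. These matches are descriptions of letters in a window and say nothing of which factor binds.

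The 10 genes covered a wide range of levels, compared here as RPKM per exon length in place of gene span (exonic RPKM), on the assumption that nearly all reads are exonic. In E18.5 Wfdc2 +/+ lung, Scd1, the desaturase that places a double bond in stearate and palmitate, was highest at 167 ± 1.29 (SD, n = 2). Fabp5, a carrier of fatty acids in the cytosol, followed at 83.6 ± 5.75. Fasn, the fatty acid synthase that builds palmitate, was at 44.8 ± 5.74 and Acly, which cleaves citrate into acetyl-CoA, at 40.3 ± 2.96, so that these neighbours did not differ beyond their spread. Elovl1, an elongase of saturated very-long-chain fatty acids, was at 30.7 ± 3.46 and Srebf1 at 21.9 ± 1.27. The Kennedy pathway genes were lower. Pcyt1a, the cytidylyl transferase that limits the rate of phosphatidylcholine synthesis, was at 15.4 ± 0.339, Chpt1, the cholinephosphotransferase of its last step, at 11.9 ± 0.419, and Chka, the choline kinase of its first step, at 5.03 ± 0.718. Acaca, the acetyl-CoA carboxylase that makes malonyl-CoA, was lowest at 4.72 ± 0.202, within the spread of Chka.

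In P1.5 Wfdc2 +/+ lung the order had changed at the top. Fabp5 was at 66.5 ± 19.9 exonic RPKM, Elovl1 at 57.3 ± 6.59 and Scd1 at 54.5 ± 12.3, values that did not differ beyond their spread. Fasn was at 22.01 ± 6.34 and Acly at 18.2 ± 5.19. Srebf1 at 12.6 ± 0.453, Chpt1 at 8.53 ± 1.42, Chka at 7.24 ± 0.159 and Pcyt1a at 6.27 ± 2.49 followed, and Acaca was again lowest at 2.55 ± 0.722. The plot of the 10 genes by library shows every value on the log2 RPKM scale.

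**Figure D1:**
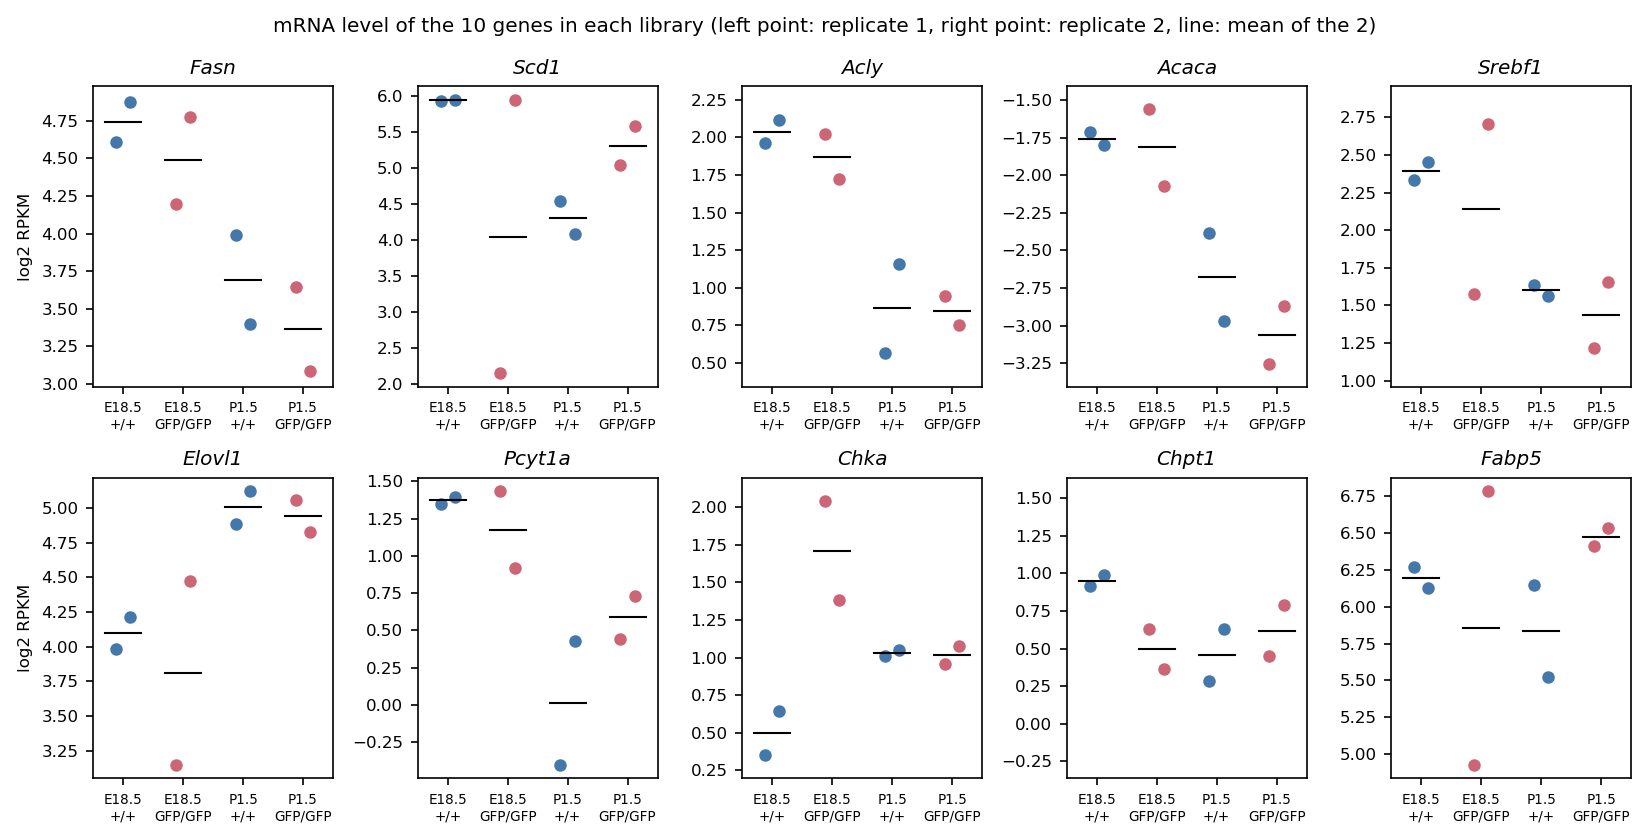
Level of each gene (log2 RPKM, y axis) in the 2 libraries of each group (points) with their mean (line); the y axes differ between panels. Fasn, Acly, Acaca and Pcyt1a lie lower in all 4 P1.5 libraries than in all 4 E18.5 libraries, Elovl1 lies higher, and replicate 1 of E18.5 Wfdc2 GFP/GFP is far below the rest for Scd1 at 2.15.

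At P1.5 none of the 10 genes was called between genotypes, and the first enzymes of fatty acid synthesis overlapped. Fasn was at 3.99 and 3.40 log2 RPKM in the Wfdc2 +/+ libraries and at 3.64 and 3.09 in Wfdc2 GFP/GFP. Acly was at 0.57 and 1.16 in Wfdc2 +/+ and at 0.95 and 0.75 in Wfdc2 GFP/GFP. Acaca was at -2.38 and -2.97 in Wfdc2 +/+ and at -3.25 and -2.87 in Wfdc2 GFP/GFP. Control and knockout values interleaved for these 3 enzymes. For Fasn the log2 fold change, knockout minus control, was -0.33 (SE 0.37, 95% interval -1.17 to 0.52, limma adjusted p = 0.788). That of Acly was -0.02 (SE 0.32, interval -0.76 to 0.73, adjusted p = 0.989) and turned to 0.18 with the libraries centred on their medians and to 0.04 under quantile normalization. That of Acaca was -0.39 (SE 0.43, interval -1.39 to 0.61, adjusted p = 0.788).

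Scd1 had the largest difference at P1.5. It was at 4.54 and 4.08 log2 RPKM in Wfdc2 +/+ and at 5.04 and 5.58 in Wfdc2 GFP/GFP, and the groups did not overlap. Its log2 fold change was 0.999, but the fit over all 8 libraries gave an SE of 1.01 (adjusted p = 0.776), an estimate of spread that holds replicate 1 of E18.5 Wfdc2 GFP/GFP. Fabp5 was at 6.14 and 5.53 in Wfdc2 +/+ and at 6.41 and 6.53 in Wfdc2 GFP/GFP, a log2 fold change of 0.64 (SE 0.57, adjusted p = 0.736). The fatty acid carrier, like the desaturase, thus had its higher libraries in the knockout group, and neither difference was called. Replicate 2 of P1.5 Wfdc2 +/+ was the lowest of the 4 libraries for both genes. Among type II markers it was also lowest for Sftpc (23977 RPM) and Napsa (428), and highest for Sftpb (1804), Abca3 (403), Slc34a2 (1491) and Etv5 (123), and the part of these cells was not tested. Elovl1 was at 4.89 and 5.12 in Wfdc2 +/+ and at 5.06 and 4.82 in Wfdc2 GFP/GFP, overlapping levels with a log2 fold change of -0.06 (SE 0.43, adjusted p = 0.965), which turned to 0.14 with median centring. Srebf1 was at 1.64 and 1.56 in Wfdc2 +/+ and at 1.21 and 1.66 in Wfdc2 GFP/GFP, overlapping as well, with a log2 fold change of -0.16 (SE 0.41, adjusted p = 0.89) that turned to 0.04 with median centring.

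In the Kennedy pathway at P1.5, Pcyt1a was at -0.40 and 0.43 log2 RPKM in Wfdc2 +/+ and at 0.44 and 0.73 in Wfdc2 GFP/GFP. Its groups did not overlap, but the lowest knockout library lay only just above the highest control library, and the log2 fold change was 0.57 (SE 0.38, interval -0.31 to 1.45, adjusted p = 0.635). Chka was at 1.01 and 1.05 in the controls, inside the 0.96 and 1.08 of the knockouts. It had a log2 fold change of -0.01 (SE 0.33, interval -0.78 to 0.75, adjusted p = 0.992), which turned to 0.19 with median centring and 0.07 under quantile normalization. Chpt1 was at 0.29 and 0.63 in Wfdc2 +/+ and at 0.45 and 0.79 in Wfdc2 GFP/GFP, with a log2 fold change of 0.16 (SE 0.31, adjusted p = 0.858). The first and the last enzyme of the pathway thus overlapped between genotypes.

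Over the whole table at P1.5, 0.0128% of genes were called, 1 of the 2 being Wfdc2 itself. None of the 10 genes reached an unadjusted p under 0.05 in either direction, a threshold that 10.9% of all genes passed. limma-voom on reads recovered from the values called none of the 10, but it did not call even Wfdc2 and so cannot decide this. The libraries did not overlap, with Wfdc2 GFP/GFP above, for 3 of the 10 (Scd1, Pcyt1a, Fabp5) and for 12.6% of all genes. With Wfdc2 GFP/GFP below, they did not overlap for none of the 10 and for 26.9% of all genes. The median log2 fold change of the 10 was -0.01, that of all genes -0.20.

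At E18.5, before birth, none of the 10 genes was called between genotypes either, and Chka had the clearest difference. The choline kinase was at 0.35 and 0.65 log2 RPKM in Wfdc2 +/+ and at 2.04 and 1.38 in Wfdc2 GFP/GFP, with both knockout libraries above both controls. Its log2 fold change was 1.21 (2.32-fold, SE 0.33, interval 0.45 to 1.97), with an unadjusted p of 0.00652 and an adjusted p of 0.612. Over the alternatives tried the adjusted p of Chka ran from 0.362 to 1, and without replicate 1 of Wfdc2 GFP/GFP the log2 fold change was 0.88. A second kinase of the same step, Chkb, which was not among the 10, was at 0.96 and 0.89 in Wfdc2 +/+ and at 1.66 and 2.27 in Wfdc2 GFP/GFP (log2 fold change 1.04, adjusted p = 0.793). Chpt1 was lower, at 0.63 and 0.37 in the knockouts against 0.92 and 0.99 in the controls, without overlap (log2 fold change -0.46, SE 0.31, adjusted p = 1). Pcyt1a was at 1.35 and 1.39 in Wfdc2 +/+ and at 1.43 and 0.92 in Wfdc2 GFP/GFP, so that the control libraries lay between the knockout ones (log2 fold change -0.20, SE 0.38, adjusted p = 1).

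The fatty acid genes at E18.5 were marked by replicate 1 of Wfdc2 GFP/GFP. Scd1 was at 5.94 and 5.95 log2 RPKM in Wfdc2 +/+, at 2.15 in replicate 1 of Wfdc2 GFP/GFP and at 5.95 in replicate 2, from 27974, 25602, 2183 and 23924 reads. The other 3 libraries were thus nearly equal, and replicate 1 was 13.9-fold below their mean. Its log2 fold change of -1.90 (SE 1.01, adjusted p = 1) became 0.00 without that library. Fabp5 was at 6.27 and 6.13 in Wfdc2 +/+ and at 4.93 and 6.78 in Wfdc2 GFP/GFP, a log2 fold change of -0.34 (SE 0.57, adjusted p = 1) that became 0.59 without replicate 1. Elovl1 was at 3.99 and 4.22 in Wfdc2 +/+ and at 3.15 and 4.47 in Wfdc2 GFP/GFP, a log2 fold change of -0.29 (SE 0.43, adjusted p = 1) that became 0.37 without it. The 2 knockout libraries thus lay on either side of the controls for both genes.

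Srebf1 at E18.5 was at 2.33 and 2.45 log2 RPKM in Wfdc2 +/+ and at 1.57 and 2.70 in Wfdc2 GFP/GFP (log2 fold change -0.26, SE 0.41, adjusted p = 1, and 0.31 without replicate 1). Fasn was at 4.61 and 4.87 in Wfdc2 +/+ and at 4.20 and 4.78 in Wfdc2 GFP/GFP (log2 fold change -0.25, SE 0.37, adjusted p = 1, and 0.04 without replicate 1). The activator and the synthase thus changed direction with 1 library. Acly was at 1.96 and 2.11 in Wfdc2 +/+ and at 2.02 and 1.72 in Wfdc2 GFP/GFP, with a log2 fold change of -0.17 (SE 0.32, adjusted p = 1). Acaca was at -1.71 and -1.80 in Wfdc2 +/+ and at -1.56 and -2.07 in Wfdc2 GFP/GFP, with a log2 fold change of -0.06 (SE 0.43, adjusted p = 1, and -0.31 without replicate 1 but 0.20 without replicate 2). For Acly the library that stood apart lay within the range of the others.

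Against the mean of the other 3 E18.5 libraries, replicate 1 of Wfdc2 GFP/GFP lay outside their range for 8 of the 10 genes. It was lower for Scd1, for Fabp5 (2.76-fold), for Elovl1 (2.11-fold), for Srebf1 (1.90-fold) and for Fasn (1.47-fold), and higher for Chka (2.38-fold), Acaca (1.23-fold) and Pcyt1a (1.16-fold). The lower genes are the shortest of the 10 by gene span (4060 to 23493 bases), and all the others span 42597 to 271980 bases. The same library was low in markers of alveolar type II cells (9708 against 19034 to 23988 summed RPM, with 6 of the 8 markers below the other 3 libraries, Abca3 within their range and Etv5 above it), of alveolar type I cells (1697 against 3434 to 4120), of club cells (658 against 2178 to 2836) and of erythroid cells (351 against 1059 to 1353), and high in those of proliferating cells. The parts of these cells and of span length in the difference were not tested. The plot of 4 genes against summed markers shows this library at the edge of each panel.

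**Figure D2:**
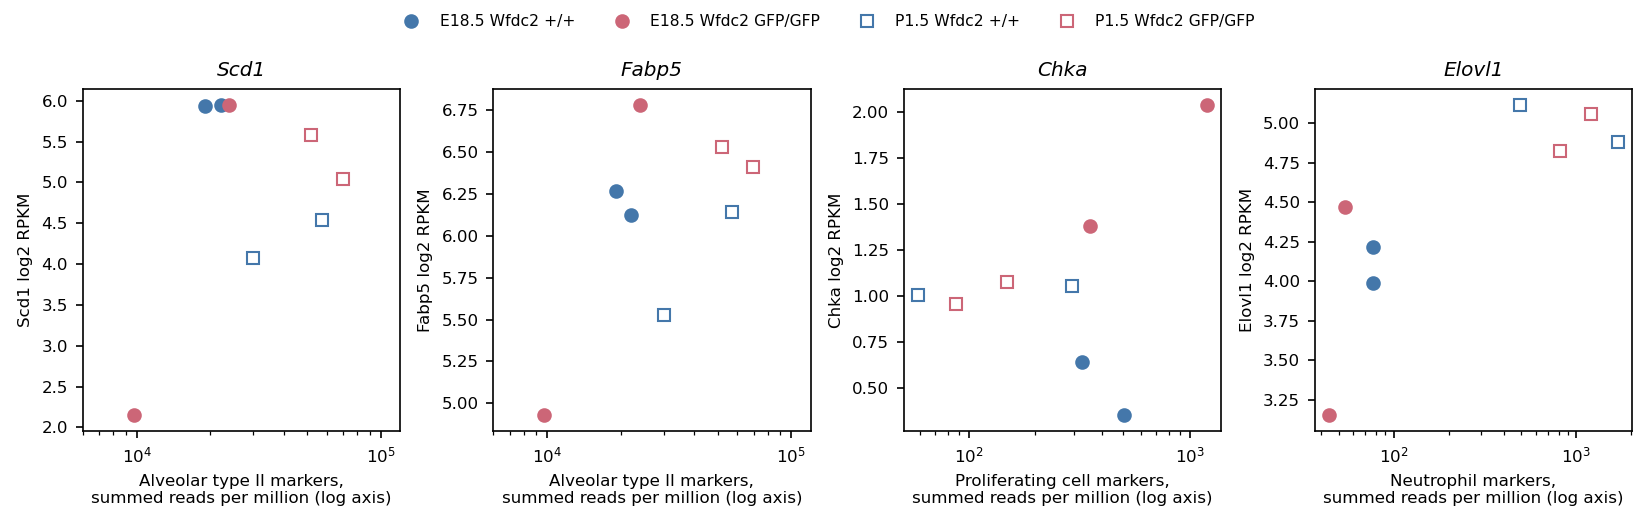
Level of Scd1, Fabp5, Chka and Elovl1 (log2 RPKM, y axis) against the summed RPM of a marker list (x axis, log scale) in the 8 libraries; filled circles are E18.5, open squares P1.5, blue Wfdc2 +/+ and red Wfdc2 GFP/GFP. Replicate 1 of E18.5 Wfdc2 GFP/GFP holds the lowest Scd1 (2.15), Fabp5 (4.93) and Elovl1 (3.15), the highest Chka (2.04), and the fewest type II marker reads (9708), a sum that is mostly Sftpc.

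Over the whole table at E18.5, 0.0192% of genes were called. Chka was the only one of the 10 with an unadjusted p under 0.05 and a higher level in the knockout, as were 3.78% of all genes, and none had one with a lower level. The libraries did not overlap with the knockout above for 1 of the 10 (Chka) and for 26.5% of all genes, and with the knockout below for 1 (Chpt1) and for 9.46%. limma-voom called none of the 10, but here too it did not call even Wfdc2 and so cannot decide this. The median log2 fold change was -0.25 for the 10 genes, 0.02 without replicate 1 of Wfdc2 GFP/GFP, and 0.09 for all genes.

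Whether the genotype difference itself differed between stages was tested as an interaction, the difference at P1.5 minus that at E18.5. No gene was called, among the 10 or in the whole table (0%). limma-voom also called none of the 10, but it did not call even Wfdc2 between genotypes at P1.5 or E18.5 and so cannot decide this. Chka had the smallest unadjusted p of the 10, 0.031, with a value of -1.22 (SE 0.47, interval -2.30 to -0.14, adjusted p = 0.43). It was the only one of the 10 with a lower value and an unadjusted p under 0.05, which held for 8.06% of all genes, and none had one with a higher value. The Chka libraries thus separated by genotype at E18.5 and overlapped at P1.5, with no call for the difference between stages. Scd1 had the largest value, 2.90 (SE 1.43, adjusted p = 0.546), which was 0.997 without replicate 1 of E18.5 Wfdc2 GFP/GFP. Those of Fabp5 (0.98, adjusted p = 0.739), Pcyt1a (0.77, adjusted p = 0.688) and Chpt1 (0.62, adjusted p = 0.697) were also above 0, and those of Elovl1, Acly, Srebf1, Fasn and Acaca lay between -0.33 and 0.23, Fasn and Acaca turning positive with median centring (0.34 and 0.08).

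**Figure D3:**
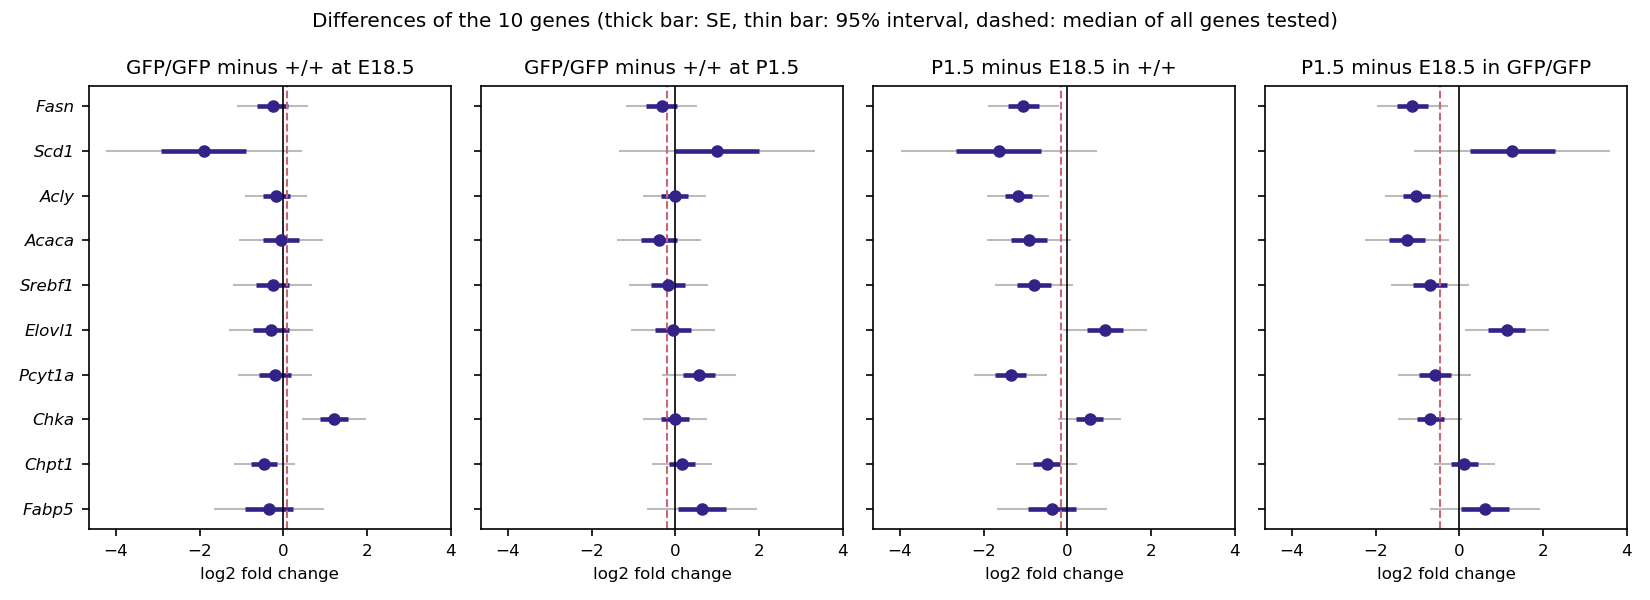
Log2 fold change of each gene (x axis) in the 4 comparisons of groups, with SE (thick bar) and 95% interval (thin bar) from limma; the dashed line is the median of all 15627 genes tested. Among the genotype differences those of Scd1 (-1.90 at E18.5, 0.999 at P1.5) and of Chka at E18.5 (1.21) lie farthest from 0, while Fasn, Acly and Acaca lie near -1 over birth in both genotypes and Elovl1 near 1.

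The next comparison was of stage, P1.5 against E18.5. In Wfdc2 +/+ lung the stages did not overlap with P1.5 below for 7 of the 10 (28.2% of all genes) and above for 2 (27.4%). None of the 10 was called. The rate-limiting Pcyt1a went from 1.35 and 1.39 log2 RPKM to -0.40 and 0.43, a log2 fold change of -1.36 (2.56-fold lower, SE 0.38, unadjusted p = 0.00753, adjusted p = 0.259). Acly had -1.17 (2.26-fold lower, SE 0.32, unadjusted p = 0.00669, adjusted p = 0.251). Fasn had -1.05 (2.07-fold lower, SE 0.37, unadjusted p = 0.0214, adjusted p = 0.368). These enzymes of citrate cleavage, palmitate synthesis and CDP-choline formation were the 3 of the 10 with an unadjusted p under 0.05 and a lower level, against 4.93% of all genes. Scd1 was 3.11-fold lower (log2 fold change -1.63) with an SE of 1.01 (adjusted p = 0.451).

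In the same lungs Acaca had a log2 fold change of -0.92 (SE 0.43, adjusted p = 0.431), Srebf1 of -0.79 (SE 0.41, adjusted p = 0.447) and Chpt1 of -0.50 (SE 0.31, adjusted p = 0.451). Elovl1 went the other way, with 0.90 (1.87-fold higher, SE 0.43, adjusted p = 0.436), as did Chka with 0.53 (SE 0.33, adjusted p = 0.451). Fabp5 overlapped between stages (log2 fold change -0.36, SE 0.57, adjusted p = 0.739). In all, 7 of the 10 were lower without overlap, against 28.2% of all genes, and 2 were higher, against 27.4%. Of all genes 0.0576% were called. limma-voom called no gene of the whole table, so that its calling none of the 10 decides nothing. The median log2 fold change of the 10 was -0.86 and that of all genes -0.15. Without replicate 2 of P1.5 Wfdc2 +/+, the library with squamous keratins and hepatocyte markers, the log2 fold change was -1.47 for Acly and -1.77 for Pcyt1a.

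In Wfdc2 GFP/GFP lung Acaca, Fasn, Acly and Elovl1 had stage differences of the same sign as in Wfdc2 +/+, and Scd1 one of the opposite sign. Acaca had a log2 fold change of -1.25 (2.38-fold lower, SE 0.43, adjusted p = 0.0916), Fasn of -1.12 (2.18-fold lower, SE 0.37, adjusted p = 0.082) and Acly of -1.02 (2.03-fold lower, SE 0.32, adjusted p = 0.0769). Elovl1 had 1.13 (2.19-fold higher, SE 0.43, adjusted p = 0.111). None of the 10 was called, while 4.55% of all genes were (459 lower and 252 higher, or 430 and 849 with median centring), and limma-voom called none of the 10. Pcyt1a had -0.59 (SE 0.38, adjusted p = 0.287), which turned to 0.09 with median centring, and Chka had -0.69 (SE 0.33, adjusted p = 0.17), the opposite sign to Wfdc2 +/+. Srebf1 had -0.70 (SE 0.41, adjusted p = 0.238) and Chpt1 0.12 (SE 0.31, adjusted p = 0.781), both with overlapping stages. Scd1 (1.26, adjusted p = 0.388) and Fabp5 (0.61, adjusted p = 0.458) overlapped too, and had -0.64 and -0.31 without replicate 1 of E18.5 Wfdc2 GFP/GFP, Fabp5 also turning to -0.27 under quantile normalization.

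An unadjusted p under 0.05 with a lower level in Wfdc2 GFP/GFP at P1.5 was reached by 3 of the 10 (Fasn, Acly, Acaca) and by 26% of all genes, and with a higher level by 1 (Elovl1) and by 9.61%. The stages did not overlap with P1.5 below for 5 of the 10 (Fasn, Acly, Acaca, Pcyt1a, Chka) and for 48.5% of all genes, and with P1.5 above for 1 (Elovl1) and for 18.7%. The median log2 fold change of the 10 was -0.64 and that of all genes -0.46. Without replicate 2 of E18.5 Wfdc2 GFP/GFP, which leaves only the library that stood apart, Scd1 had 3.16, Elovl1 1.79 and Fabp5 1.54.

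A mean of the stage differences over both genotypes was also computed, a contrast chosen after the values were seen. Scd1, Chka, Chpt1 and Fabp5 differed in sign between the genotypes, and for them the mean joins opposite values. Acly was the 1 gene of the 10 that was called, and it fell by 1.10 on the log2 scale (2.14-fold lower, SE 0.23, adjusted p = 0.0422), with all 4 P1.5 libraries (0.57 to 1.16) below all 4 E18.5 libraries (1.72 to 2.11). The call was lost with the replicate number, which is the animals' sex, as a block (adjusted p = 0.061). Fasn had -1.09 (SE 0.26, adjusted p = 0.051), Acaca -1.08 (SE 0.31, adjusted p = 0.0609) and Pcyt1a -0.97 (SE 0.27, adjusted p = 0.0592), each with all P1.5 libraries below all E18.5 libraries. Elovl1 had 1.02 (SE 0.31, adjusted p = 0.0665), with all P1.5 libraries above. The printed promoter windows belong to Acly, Fasn, Pcyt1a and Elovl1. Srebf1 had -0.75 (SE 0.29, adjusted p = 0.0996), and Scd1, Chka, Chpt1 and Fabp5 lay between -0.19 and 0.13.

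For this mean over genotypes 5.14% of all genes were called, 2.56% lower (400 genes) and 2.58% higher (403), against 564 lower and 1278 higher with median centring. An unadjusted p under 0.05 was reached with a lower level by 5 of the 10 and by 26.7% of all genes, and with a higher level by 1 and by 12.3%. Without overlap, 4 of the 10 were lower, against 13.7% of all genes, and 1 was higher, against 7.28%. The median of all genes was -0.32, and relative to it Acly stood at -0.78, Fasn and Acaca at -0.77, Pcyt1a at -0.65 and Elovl1 at 1.33. Over the alternatives the adjusted p of Acly ran from 0.00674 to 0.17. Its call was kept without replicate 2 of E18.5 Wfdc2 GFP/GFP or either P1.5 Wfdc2 +/+ library, and lost without any of the other 5. Leaving out single libraries gave Acly log2 fold changes of -1.25 to -0.95. With median centring none of the 10 was called lower and Elovl1 was called higher (1.49, adjusted p = 0.0489).

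Markers of other cell types were followed over the same stages. The 6 neutrophil markers summed to 44.3 to 77.4 RPM at E18.5 and to 491 to 1679 at P1.5, and 5 of the 6 were called higher. The 4 markers of proliferating cells summed to 325 to 1193 at E18.5 and to 59.0 to 291 at P1.5, and none was called. Of the 8 alveolar type II markers, 3 (Sftpc, Sftpa1, Napsa) had a higher value at P1.5 and 5 a lower one, with a median log2 fold change of -0.073 and none called, although their sum, most of which is Sftpc, went from 9708 to 23988 to 29938 to 69770. The 6 fibroblast and lipofibroblast markers ran from 1705 to 2196 at E18.5 and from 574 to 2258 at P1.5, with Pdgfra called lower. Adipocytes use the same enzymes, and their 6 markers summed to 0.192 to 0.855 RPM at E18.5 and to 1.11 to 3.93 at P1.5, with Lep at 0 in all 8 libraries and Adipoq at 0 in 5 of them. The 4 brown fat markers summed to 6.61 to 19.9, mostly Ppargc1a. Ucp1, the defining one, was at 5.74 RPM in replicate 2 of P1.5 Wfdc2 GFP/GFP and at 0 to 0.192 in the others. That library also held the most Adipoq (0.615 RPM) and, at P1.5, the most Scd1 (635) and Fabp5 (376). The part of these cells in the stage and genotype differences was not tested.

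The other genes of lipid synthesis were followed as 7 lists, described by counts beside those of the whole table. In the genotype comparisons and the interaction no gene of any list was called. Among 23 tested genes of fatty acid synthesis, elongation and desaturation, the median log2 fold change was -0.12 at P1.5 and 0.14 at E18.5, and 2 reached an unadjusted p under 0.05 at P1.5, both lower. They were Ptplb (Hacd2), a dehydratase of the elongation cycle (-1.14, adjusted p = 0.37), and Acss2, which activates acetate (-0.95, adjusted p = 0.437). Among 16 regulators the glucose-responsive factor Mlxipl had the smallest p in both, at 1.92 (adjusted p = 0.884) at E18.5 and -1.90 (adjusted p = 0.359) at P1.5, on only 14 to 129 reads a library.

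In the list for phosphatidic acid and diacylglycerol supply, the phosphatase Lpin1 had the smallest p at P1.5. It was at 0.04 and -1.58 log2 RPKM in Wfdc2 +/+ and at -2.58 and -3.19 in Wfdc2 GFP/GFP, without overlap (log2 fold change -2.11, unadjusted p = 0.00558, adjusted p = 0.305). The list's median was -0.33 at P1.5 and -0.01 at E18.5, over 12 tested genes. In the list for choline uptake and phosphatidylcholine synthesis, with 7 tested genes, none passed an unadjusted p under 0.05 at P1.5 (median -0.02), and Chkb was the one that did at E18.5 (median 0.35). In the list for remodelling and turnover, with 11 tested genes, the median was -0.20 at P1.5, and Pla2g6, a calcium-independent phospholipase, had -1.11 (adjusted p = 0.344). Among 13 genes of the other phospholipid classes, Ptpmt1, Cdipt and Cds1 had 0.86, 0.81 and 0.86 at P1.5 (adjusted p = 0.412, 0.442 and 0.445). Among 16 tested genes of fatty acid binding, activation and uptake, Dbi, which binds acyl-CoA, had 1.17 (adjusted p = 0.382) and the lipase Lpl -0.95 (adjusted p = 0.367) at P1.5, and the transporter Slc27a1 had 1.05 at E18.5 (adjusted p = 0.673).

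Over birth 4 of the 98 tested genes of these lists were called in the mean over both genotypes (4.08%, against 5.14% of all genes), and 3 of them also in Wfdc2 GFP/GFP (3.06%, against 4.55%). Scd2, the second lung desaturase, was at 6.85, 6.88, 6.22 and 6.96 log2 RPKM at E18.5 and at 4.54, 4.64, 3.89 and 4.47 at P1.5. It fell by 2.41 on the log2 scale in Wfdc2 GFP/GFP (adjusted p = 0.0294) and by 2.35 over both genotypes (adjusted p = 0.00906). It was therefore lower after birth in the knockout as in the control, with no library out of order. The Scd1 value in the knockout (1.26) rested on replicate 1 of E18.5 Wfdc2 GFP/GFP and was -0.64 without that library. Gpam, which starts glycerolipid synthesis by acylating glycerol phosphate, was at 1.28, 1.30, 2.33 and 0.31 at E18.5 and at -1.72, -0.39, -2.45 and -2.60 at P1.5. It fell by 3.85 in Wfdc2 GFP/GFP (adjusted p = 0.039) and by 3.09 over both genotypes (adjusted p = 0.025).

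Fabp3, the heart-type fatty acid carrier, rose by 2.25 on the log2 scale in Wfdc2 GFP/GFP (adjusted p = 0.0427) and by 2.30 over both genotypes (adjusted p = 0.016), with all P1.5 libraries (1.76 to 2.71) above all E18.5 libraries (-0.42 to 0.67). Summed markers of cardiac muscle, which also expresses Fabp3, were 38.3 to 354 RPM at E18.5 and 101.2 to 284 at P1.5, and their part was not tested. Agpat4, an acyltransferase, rose by 1.13 over both genotypes (adjusted p = 0.0471). The medians over both genotypes were -0.39 for fatty acid synthesis, elongation and desaturation, -0.37 for the regulators, -0.28 for choline uptake and phosphatidylcholine synthesis, -0.04 for phosphatidic acid supply, -0.22 for remodelling, -0.22 for other phospholipids and 0.02 for binding and uptake, beside -0.47 for the 10 genes and -0.32 for all genes.

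**Figure D4:**
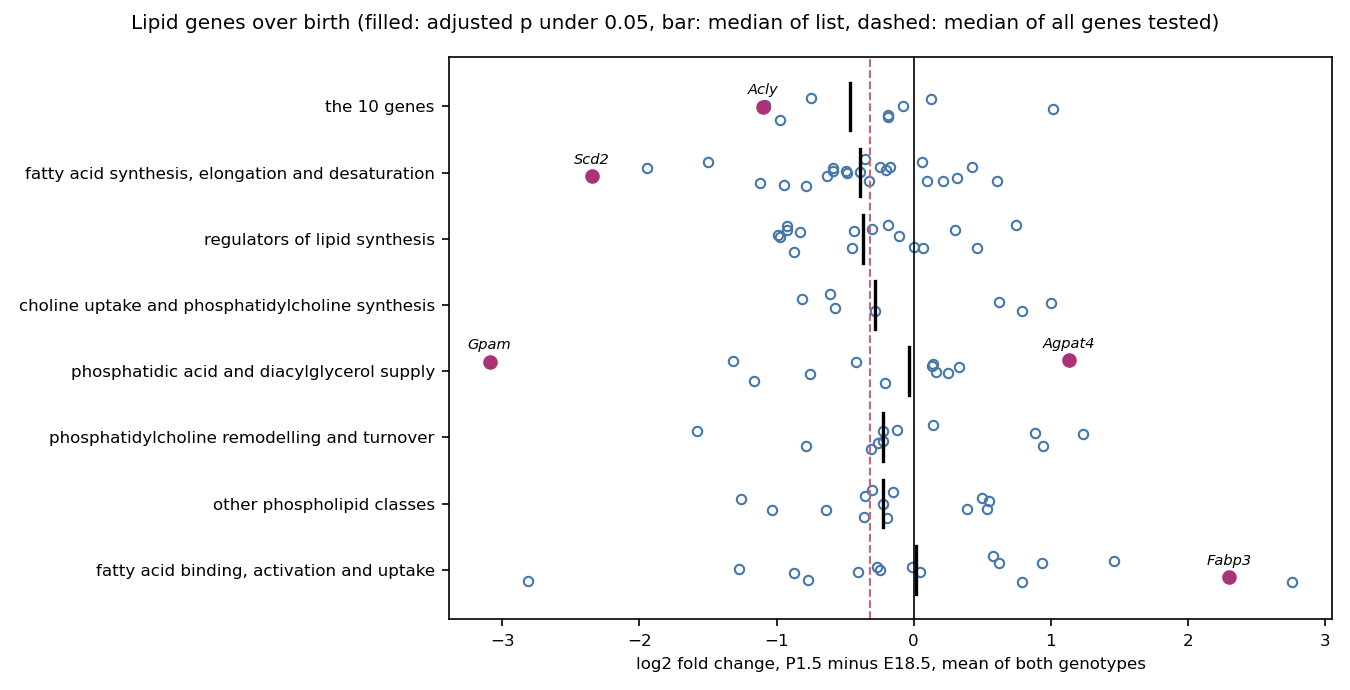
Log2 fold change of P1.5 minus E18.5, as the mean of both genotypes (x axis), for each tested gene of the 10 and of 7 lists (rows); filled points are called by limma at an adjusted p under 0.05, bars are list medians and the dashed line is the median of all genes (-0.32). Acly, Scd2 and Gpam are called lower, and Agpat4 and Fabp3 higher.

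The 10 genes did not vary as 1 block. Over the 8 libraries, which differ in stage, genotype and depth and include the library that stood apart, Pearson's r was 0.90 between Scd1 and Fabp5 and 0.90 between Acly and Pcyt1a. Acaca correlated with Acly at 0.81 and with Fasn at 0.81, and Fasn with Srebf1 at 0.81. Scd1 by contrast correlated with Acly at -0.0077 and with Acaca at -0.10, and Elovl1 was opposite to Acaca at -0.88. The genes most like each member, by r over the same 8 libraries, were AU021092 for Fasn (0.98), Amhr2 for Scd1 (0.95), F13a1 for Acly (0.98), Ccbe1 for Acaca (0.99) and Fam167a for Srebf1 (0.96). For the remaining 5 they were Ifi30 for Elovl1 (0.99), Csnk1a1 for Pcyt1a (0.99), Igbp1 for Chka (0.97), Tmem30a for Chpt1 (0.96) and Trappc1 for Fabp5 (0.97). These are descriptions of 8 libraries and carry no test.

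The gene models bear on some of these values. On mm10, Acaca (chr11:84129672-84401651, plus strand) contains the opposite-strand gene Gm11437 over 19126 bases, and Chpt1 (chr10:88452745-88504073, minus strand) contains Sycp3 over 13668 bases. Elovl1 (chr4:118428093-118432953, plus strand) meets Cdc20, a proliferation marker, over 53 bases at its end. Whether reads were counted by strand is not given in the sources used here, so reads of such pairs cannot be told apart. Only 6.28% of the Acaca span and 10.2% of the Acly span is exon, against 87.9% for Fabp5, so that log2 RPKM per whole span understates long genes, and the comparison between genes was made per exon length for that reason. Fabp5 (chr3:10012548-10016607, plus strand) has a processed pseudogene, Fabp5l2, with which it may share reads.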

How the data were processed

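Whole-lung total RNA of 2 animals in each of 4 groups was sequenced with a strand-keeping kit. Per the labels and the study's methods, the authors called bases with CASAVA 1.8, trimmed reads with Trim Galore 0.4.0, aligned them to mm10 with TopHat2 2.1.1, quantified gene spans in SeqMonk and gave each library's values as log2 RPKM; whether intronic or antisense reads were counted is not given in the sources used here. A gene without reads was entered as 0.9 reads. Whole reads were recovered for at least 99.86% of values (within 0.02 reads), giving the depth. The 15627 of 25965 genes whose mean reached 0.05 RPKM were fitted in limma 3.58.1 (R 4.3.3) on the deposited log2 values without pseudocount, 1 mean per group, trended moderated tests, two-sided, Benjamini-Hochberg over all genes. Members and lists were chosen with earlier results of these data known. Genes were named by rule: the 10, Wfdc2, list genes called or with up to 3 smallest p per list and comparison, and those most correlated with each member. Alternatives were pseudocounts of 0.1 and 1 RPKM, no filter or 0.5 RPKM, median centring, quantile normalization, limma-voom on recovered reads, the 2 groups alone, a replicate block and leaving out each library. The fit was tested on simulated reads with no sex difference and no library that stood apart, so that test does not cover these features of the data. Promoters are from RefSeq (GRCm38.p6), exons from GENCODE; figures were drawn with matplotlib. Recovered reads cover counting error only.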

Additional observations from a re-analysis of the deposited data

How the results depend on the processing

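Of the fold changes of single genes recomputed under each alternative, 122 of 129 kept their direction for genotype at E18.5, 114 of 129 at P1.5, 148 of 159 for the interaction, 129 of 129 for stage in Wfdc2 +/+, 123 of 129 in Wfdc2 GFP/GFP and 149 of 159 over both genotypes. Except where stated, the cause was not tested. For genotype at P1.5, median centring gave Acly 0.18, Srebf1 0.036, Elovl1 0.14, Chka 0.19 and a median of the 10 of 0.19, and quantile normalization gave Acly 0.038, Chka 0.066 and a median of 0.052. For the interaction, centring gave Fasn 0.34, Acaca 0.078 and a median of 0.60, and quantile normalization gave Acaca 0.24. The median for stage in Wfdc2 +/+ was -0.49 with a pseudocount of 1 RPKM and -0.59 with centring. For stage in Wfdc2 GFP/GFP it was -0.29 with that pseudocount, 0.036 with centring and -0.37 with quantile normalization, which called 1 gene lower (Fasn) and gave Fabp5 -0.27, and centring gave Pcyt1a 0.087. Over both genotypes the genes called lower numbered 2 with a pseudocount of 0.1 RPKM, 0 without a filter, 3 with a filter of 0.5 RPKM (which drops Acaca), 0 with centring, 2 with quantile normalization and 2 with limma-voom, and 1 was called higher with the 0.5 RPKM filter and with centring. The median there was -0.20 with a pseudocount of 1 RPKM, -0.19 with the 0.5 RPKM filter and 0.0030 with centring, centring gave Scd1 0.29, Chka 0.39 and Chpt1 0.28, and quantile normalization gave Chka 0.10, Chpt1 0.11 and Fabp5 -0.53.

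Leaving out each library in turn gave, for genotype at E18.5, Acaca -0.31 to 0.20, Elovl1 -0.95 to 0.37, Fabp5 -1.27 to 0.59, Fasn -0.54 to 0.036, Pcyt1a -0.45 to 0.062, Scd1 -3.80 to 0.0019, Srebf1 -0.82 to 0.31 and the median -0.43 to 0.019. At P1.5 it gave Acly -0.31 to 0.28, Chka -0.073 to 0.048, Chpt1 -0.0079 to 0.33, Elovl1 -0.18 to 0.056, Srebf1 -0.39 to 0.058 and the median -0.032 to 0.17. The interaction had Acly -0.14 to 0.45, Elovl1 -0.43 to 0.89, Fasn -0.37 to 0.22, Srebf1 -0.47 to 0.66 and the median -0.015 to 0.50. Stage in Wfdc2 +/+ had 0 to 2 genes called lower, with 2 without replicate 2 of P1.5 Wfdc2 +/+. Stage in Wfdc2 GFP/GFP had Chpt1 -0.045 to 0.29, Fabp5 -0.31 to 1.54, Scd1 -0.64 to 3.16, the median -0.74 to -0.46 and 0 to 3 genes called higher, with 3 without replicate 2 of E18.5 Wfdc2 GFP/GFP. Stage over both genotypes had Chka -0.25 to 0.085, Fabp5 -0.34 to 0.59, Scd1 -1.14 to 0.76, the median -0.90 to -0.36, 0 to 1 called higher and 0 to 4 called lower. The lone library of a group was assumed to vary like the others.

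The replicate block, with the number in the labels as a term, left 0 of the 10 called in any comparison, including Acly over both genotypes (adjusted p = 0.061). In every group replicate 1 is female and replicate 2 male by Xist and Ddx3y, so this block is one of sex. Deviations of same-numbered libraries correlated at 0.23 between the E18.5 groups, 0.21 between the P1.5 groups, and -0.29, -0.017, -0.0068 and 0.078 across stages, so beyond sex these values do not show the numbers to pair the libraries. Fits on 2 groups alone were not run for the interaction or over both genotypes. Over the whole table, genes called higher and lower for stage numbered 4 and 5 in Wfdc2 +/+ (550 and 1616 without replicate 2 of P1.5 Wfdc2 +/+, 0 with limma-voom or the block), 252 and 459 in Wfdc2 GFP/GFP (62 and 67 with limma-voom, 75 and 50 with the block, 769 and 2267 from these groups alone, 0 without either replicate 1) and 403 and 400 over both genotypes (181 and 106 with the block, 1654 and 5471 without replicate 2 of P1.5 Wfdc2 +/+). For genotype, 2 at P1.5 and 3 at E18.5 were called lower, and 0 with limma-voom, centring or quantile normalization.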
